A study of Mus musculus with 15 samples.

Results

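The p53 family and a set of direct p53 targets were followed in RNA-seq read counts of cultured mouse small cell lung cancer lines. The set holds 10 genes, found by their names in both deposited count tables, out of 53510 names that the tables share. They are the family members Trp53, Trp63 and Trp73, the inhibitors Mdm2 and Mdm4, and the targets Cdkn1a, Ccng1, Sesn2, Zmat3 and Phlda3. The first table (set 1) compares lung lines labelled RPM with lung lines labelled RPMS. RPM stands for Rb1-/-:Trp53-/-:MYC, that is, deletion of Rb1 and Trp53 together with MYC, and RPMS carries STAT3-/- on top of these. Set 1 has 4 RPM lines (CMV_426, CMV_427, CMV_428 and CMV_429) and 3 RPMS lines (CMV_228, CMV_231 and CMV_252). The second table (set 2) compares RPMS lines from the lung (CMV_228, CMV_231, CMV_232 and CMV_252; n = 4) with RPMS lines from the liver (CMV_273, CMV_341, CMV_343 and CMV_344; n = 4). All groups, the RPM controls included, are labelled Trp53-/-, so no library with intact Trp53 was analysed here. The level of a target with and without p53 can therefore not be compared within these data. The deleted exons and the Cre driver are not given in the sources used here, each line is 1 culture of cells taken from tissue, and no age is given.

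In normal cells p53 is a transcription factor that is kept scarce by Mdm2, a ubiquitin ligase, and by its partner Mdm4. DNA damage or other stress frees p53, which binds paired half-sites in DNA and switches on genes of cell cycle arrest, cell death, metabolism and repair. Mdm2 is itself a target, which closes a feedback loop. The relatives p63 and p73 bind similar sequences, p63 in basal epithelial cells and p73 in, among others, neuronal and multiciliated cells. Most small cell lung cancers have lost both p53 and Rb1.

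Total counts ran from 25344949 to 31345631 per library in set 1 and from 9453715 to 18451248 in set 2, the lowest in liver line CMV_344. Line CMV_344 nevertheless had counts for the most genes, 30341 against 21658 to 24549 in the other set 2 libraries. The bearing of this on its levels was not tested. Levels are CPM, read counts scaled to library size, with TMM, edgeR's trimmed-mean scaling. A floor of 3 counts equals 0.0907 to 0.12 CPM in set 1 and 0.16 to 0.292 CPM in set 2, which covers counting error only. Stat3, the gene that separates the genotypes, was at 179, 195, 160 and 209 CPM in RPM lines CMV_426, CMV_427, CMV_428 and CMV_429. In RPMS lines CMV_228, CMV_231 and CMV_252 it was at 16.3, 19.0 and 7.83 CPM (log2 fold change from the fit, given below as the log2 ratio, −3.69, SE 0.35, edgeR adjusted p = 0.00176). The labelled Rb1 deletion was not visible as a low level per gene: Rb1 was at 59.0, 38.7, 50.3 and 44.2 CPM in the RPM lines and at 124, 130 and 22.0 CPM in the RPMS lines (adjusted p = 0.241, and 0.00623 without line CMV_252).

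The libraries labelled as lung epithelium differed in the markers of other cell types, and 1 line stood apart. The 15 leukocyte markers summed to 16950, 12080, 3583 and 6075 CPM in RPM lines CMV_426, CMV_427, CMV_428 and CMV_429, and to 3.29, 2.89 and 152 CPM in RPMS lines CMV_228, CMV_231 and CMV_252. Of them 13 were lower in RPMS, and 9 had no count in any RPMS library of set 1, among them the pan-leukocyte gene Ptprc at 168 to 548 CPM in RPM. Most of the 152 CPM in line CMV_252 came from Lyz2 at 124 CPM and Cd74 at 27.1 CPM. The 12 neuroendocrine markers summed to 75.8, 54.9, 36 and 19.6 CPM in the RPM lines and to 4002, 3835 and 1204 CPM in the RPMS lines. Of these, 9 were higher in RPMS. The summed neuroendocrine markers were therefore low in all RPM libraries beside the RPMS libraries of set 1. Fibroblast markers summed to between 23.3 and 728 CPM in the RPM lines and between 7.16 and 17.0 CPM in the RPMS lines. For alveolar and airway markers these ranges were 123 to 1272 and 67.4 to 154 CPM. Because cultures are measured in bulk, fewer cells of a type and less RNA per cell cannot be told apart. These sums move with the genotype, and their part in every set 1 difference below was not tested. Line CMV_252 differed from the other RPMS lung lines in both sets. In set 2 its neuroendocrine markers summed to 190 CPM, against 3113 to 4541 CPM in the other lung lines and 3190 to 5446 CPM in the liver lines. Where leaving out line CMV_252 changed whether a member was called, both results are given.

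**Figure D1:**
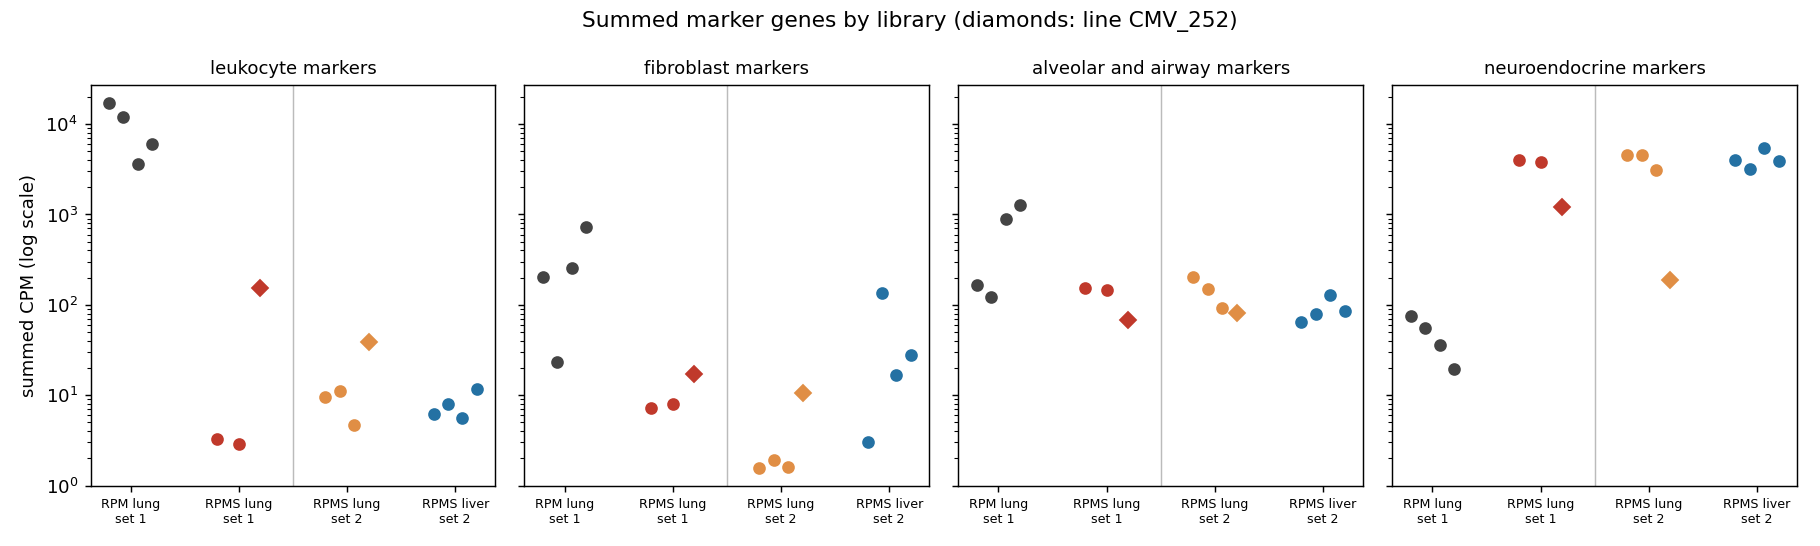
Summed CPM (log scale) of leukocyte, fibroblast, alveolar and airway, and neuroendocrine marker genes, 1 point per library, with line CMV_252 as a diamond and the 2 tables separated by a line. In set 1 the RPM lines are high in leukocyte markers (3583 to 16950 CPM) and low in neuroendocrine markers (19.6 to 75.8 CPM), and the RPMS lines are the reverse.

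Promoter sequences are shown for the members with a match to the p53 half-site consensus, because these are the letters that p53 recognises. Of the members that hold them Cdkn1a alone was called in set 1. The other called members, Zmat3 and Trp63, had no window to search, and a link between a match and a call was not tested. RefSeq windows (GRCm38.p6) from 250 bases before to 50 after the transcript start were found for 8 of the 10 members, in 11 windows, and not for Trp63 and Zmat3. The 10-base consensus was searched by name as 3 purines, C, A or T, A or T, G and 3 pyrimidines, which reads the same on both strands. Of all 32851 windows, 8.36% hold a match, and 0.0731% hold a pair of matches with at most 13 bases between them, the full site. Among members, Cdkn1a holds a full site, and Trp53, Mdm2 and Ccng1 hold 1 half-site each. The windows of Trp73, Mdm4, Sesn2 and Phlda3 hold none, which says only that these letters are not in these windows. The whole Cdkn1a window that holds the site is given, and 60 bases around the match for the other genes. Capitals mark exact matches only, and each sequence runs 5′ to 3′ on the strand of its gene. In Cdkn1a the 10 bases after the second match differ from the consensus at their first letter alone and stay in lower case.
Cdkn1a, chr17:29090729-29091028, plus strand: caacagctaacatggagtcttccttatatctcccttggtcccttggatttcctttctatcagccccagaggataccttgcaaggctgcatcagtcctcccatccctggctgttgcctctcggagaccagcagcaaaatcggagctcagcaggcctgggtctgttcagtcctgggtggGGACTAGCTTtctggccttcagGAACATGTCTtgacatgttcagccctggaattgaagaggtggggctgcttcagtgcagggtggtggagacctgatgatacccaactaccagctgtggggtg
Trp53, chr11:69580259-69580318, plus strand: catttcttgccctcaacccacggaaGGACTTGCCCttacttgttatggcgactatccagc
Mdm2, chr10:117710910-117710969, minus strand: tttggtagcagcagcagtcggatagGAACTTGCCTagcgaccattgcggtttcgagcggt
Ccng1, chr11:40755437-40755496, minus strand: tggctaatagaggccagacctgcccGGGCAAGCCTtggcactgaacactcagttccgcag
In this Cdkn1a window the half-sites begin 73 and 51 bases before the start and are 12 bases apart. The other Cdkn1a window, at chr17:29093519-29093818, belongs to another transcript start and holds no match. The match begins 75 bases before the start in Trp53, 186 in Mdm2 and 185 in Ccng1. A match is a description of the letters and not a binding site measured here.

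Among the 9 members that passed the expression filter in set 1, Cdkn1a and Zmat3 were higher in RPMS than in RPM and Trp63 was lower, while 6 did not pass the threshold of adjusted p = 0.05. Trp73 failed the filter. The background was broad: of 17654 genes tested, 30.6% were called, 14.9% higher and 15.7% lower in RPMS. The share of members called, 3 of 9, lies near that background and is no result about the members as a set. Line CMV_252 bore on these counts: without it 6 members and 7076 genes were called. Without CMV_228 or CMV_231, 2896 and 3103 genes were called. The groups did not overlap for 4 members (Mdm4, Cdkn1a, Ccng1 and Zmat3), against 43% of all genes tested. The median log2 ratio of the 9 members was −0.24, beside −0.01 over all genes. In set 2 no member was called between liver and lung (0 of 9 tested, with Trp63 failing the filter), as was no other gene: 0% of 14441 genes passed in edgeR. At an unadjusted p under 0.05 in edgeR there were 650 genes, beside 722 expected if no gene differed, and no member. DESeq2 called 78 genes and no member. No member of set 2 had groups that do not overlap, against 2.56% of all genes tested, and the median log2 ratio of the members was 0.31 beside −0.02 over all genes.

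**Figure D2:**
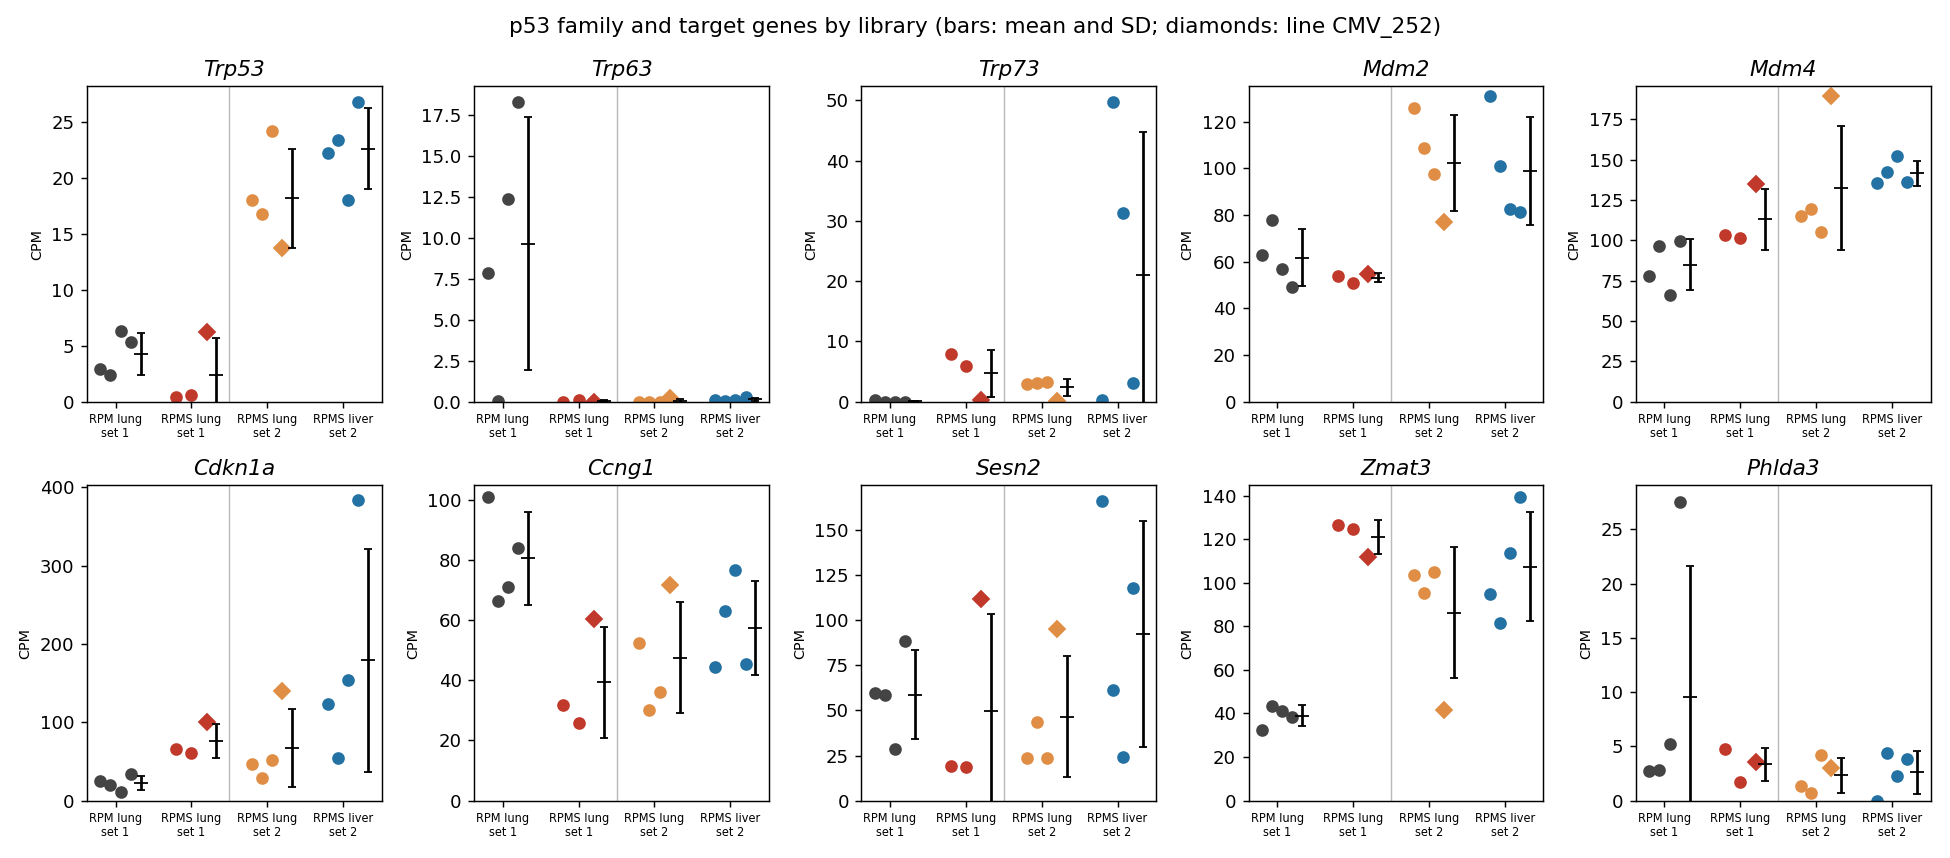
CPM of the 10 members, 1 point per library, with the mean and SD of each group (lower bars end at 0) and line CMV_252 as a diamond. Cdkn1a and Zmat3 are higher in every RPMS than in every RPM library of set 1, and Trp53 is higher in all set 2 libraries than in all set 1 libraries.

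Trp53 itself was detected in every library, and its level differed more between the tables than between the groups within a table. The gene lies at chr11:69580359-69591873 on the plus strand (GRCm38), and none of its exons overlaps an exon of another gene. In set 1 it was at 2.90, 2.40, 6.33 and 5.31 CPM in RPM lines CMV_426, CMV_427, CMV_428 and CMV_429. In the RPMS lines it was at 0.399 CPM (line CMV_228), 0.571 CPM (line CMV_231) and 6.20 CPM (line CMV_252). Lines CMV_228 and CMV_231 were below every RPM line, whereas line CMV_252 lay within the RPM range. The group means were 4.24 ± 1.89 (SD, n = 4) and 2.39 ± 3.30 CPM (SD, n = 3), and the log2 ratio of −0.82 (SE 1.00) did not pass (edgeR adjusted p = 0.571). Without line CMV_252 it was −3.12 and passed (edgeR adjusted p = 0.0140).

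In set 2 Trp53 was at 18.0, 16.8, 24.2 and 13.7 CPM in lung lines CMV_228, CMV_231, CMV_232 and CMV_252. The liver lines CMV_273, CMV_341, CMV_343 and CMV_344 were at 22.2, 23.4, 18.0 and 26.8 CPM. Lung and liver overlapped, and their means of 18.2 ± 4.40 and 22.6 ± 3.60 CPM (SD, n = 4 each) did not differ beyond the spread (log2 ratio 0.31, SE 0.27, edgeR adjusted p = 0.945). Both tables hold lung lines CMV_228, CMV_231 and CMV_252, so that each can be read against itself without pooling. The Trp53 count of line CMV_228 was 13 in set 1 and 319 in set 2, a ratio of 45.1 on the CPM scale. For line CMV_231 the counts were 18 and 309, a ratio of 29.4, and for line CMV_252 they were 205 and 178, a ratio of 2.21. Wrap53, the neighbouring gene on the minus strand (chr11:69561758-69580255), moved less in the same lines, by ratios of 1.31, 1.34 and 2.08. The other 9 members had set 2 to set 1 ratios between 0.285 and 2.38 wherever the gene had counts in both. The 2 tables were made separately, their annotation and counting settings are not given in the sources used here, and the part these have in the Trp53 difference was not tested. The ratio between tables was thus not the same for each line. The tables are set side by side only as a description, and groups are compared within a table. The log2 ratio of −3.12 without line CMV_252 rests on the set 1 counts of 13 and 18, from the lines whose Trp53 counts differed most between the tables.

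**Figure D3:**
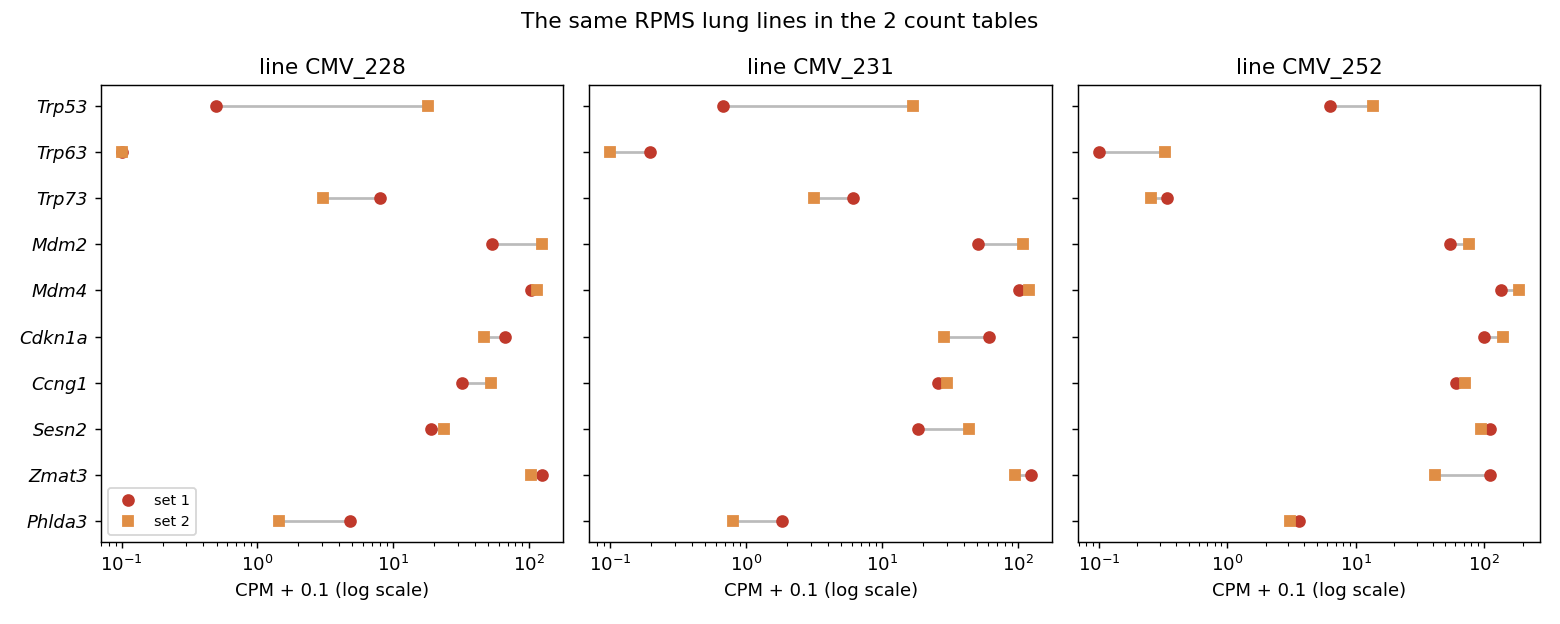
CPM plus 0.1 (log scale) of each member in the 3 RPMS lung lines that both tables hold, with set 1 as circles and set 2 as squares. Trp53 is 45.1 and 29.4 times as high in set 2 for lines CMV_228 and CMV_231 and 2.21 times for line CMV_252, and most other members lie close together.

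Trp63, which maintains basal epithelial cells, was found almost only in RPM. Trp63 lies at chr16:25683763-25892102 on the plus strand. It was at 7.88 CPM in line CMV_426, 0.0374 CPM in line CMV_427, 12.4 CPM in line CMV_428 and 18.3 CPM in line CMV_429. RPMS lines CMV_228, CMV_231 and CMV_252 had 0, 0.0952 and 0 CPM, at or under the floor. Line CMV_427 sat with the RPMS lines, so that the groups overlapped. The RPM libraries held 972 Trp63 counts in all and the RPMS libraries 3, a ratio of 308 with a 95% counting interval of 105 to 1490. This interval covers counting error only and not the spread between lines. The edgeR log2 ratio was −8.08 (SE 2.17, adjusted p = 0.0305). This call was lost without line CMV_228 (adjusted p = 0.105), CMV_231 (0.0826) or CMV_252 (0.0691), and the gene failed the filter without line CMV_426, CMV_428 or CMV_429. Limma-voom did not call it (adjusted p = 0.184). The RPM lines with the most Trp63, CMV_428 and CMV_429, also had the highest alveolar and airway sums, 882 and 1272 CPM, and line CMV_427 had the lowest, 123 CPM. Fibroblast sums had the same order of lines, from 23.3 CPM in line CMV_427 to 728 CPM in line CMV_429, and the part of either in Trp63 was not tested. Krt5, a keratin of basal cells, had no count in set 1, and Krt14 was at most at 0.119 CPM; both were chosen after their values were seen. In set 2 Trp63 was at or under the floor in every library, with 3 counts over the lung and 8 over the liver lines.

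Trp73 had the opposite pattern and was found almost only in RPMS. Trp73 lies at chr4:154056253-154140208 on the minus strand. In set 1 it was at 0.196 CPM in RPM line CMV_426 and had no count in lines CMV_427, CMV_428 and CMV_429. RPMS lines CMV_228 and CMV_231 were at 7.86 and 5.96 CPM, and line CMV_252 was far lower at 0.242 CPM. RPM held 5 Trp73 counts and RPMS 452, a ratio of 95.2 with a 95% counting interval of 40.5 to 295, which again leaves out the spread between lines. The gene failed the expression filter, and it passed in a fit without the filter (log2 ratio 6.46, SE 1.72, edgeR adjusted p = 0.046), and without line CMV_252, where it passed the filter (7.01, adjusted p = 0.0156). In set 2 it was at 2.94, 3.04 and 3.32 CPM in lung lines CMV_228, CMV_231 and CMV_232 and at 0.154 CPM in line CMV_252. Liver lines CMV_341 and CMV_343 were far above every lung line, at 49.7 and 31.2 CPM. Line CMV_344 was within the lung range at 3.02 CPM, and line CMV_273 was near the floor at 0.217 CPM. The liver mean of 21.04 ± 23.7 CPM and the lung mean of 2.36 ± 1.48 CPM gave a log2 ratio of 3.15 (SE 1.42) that did not pass (edgeR adjusted p = 0.945). It was 2.27 without line CMV_341 (adjusted p = 0.981) and 2.77 without line CMV_252 (adjusted p = 0.869). Of the Trp73 exons 280 bases overlap the antisense gene Trp73os, which had no count in set 1 and 1 in set 2.

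Mdm2, the ligase that degrades p53 and a target of it, differed by less than the spread between lines in both tables. Mdm2 lies at chr10:117688875-117710758 on the minus strand. In set 1 it was at 62.9, 77.9, 56.9 and 49.0 CPM in the RPM lines and at 53.7, 50.9 and 54.6 CPM in the RPMS lines. The means of 61.7 ± 12.2 and 53.1 ± 1.91 CPM gave a log2 ratio of −0.22 (SE 0.20, edgeR adjusted p = 0.453). In set 2 the lung lines CMV_228, CMV_231, CMV_232 and CMV_252 were at 126, 109, 97.4 and 77.1 CPM and the liver lines CMV_273, CMV_341, CMV_343 and CMV_344 at 131, 101, 82.4 and 81.5 CPM. The 2 groups covered nearly the same range, and the log2 ratio was −0.05 (SE 0.23, adjusted p = 0.991).

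Mdm4, which binds p53 and blocks its activation domain, was at 77.6, 96.5, 65.9 and 99.7 CPM in the RPM lines and at 103, 101 and 135 CPM in the RPMS lines. Mdm4 lies at chr1:132959484-133030561 on the minus strand. The groups did not overlap, but the difference did not pass (log2 ratio 0.41, SE 0.21, edgeR adjusted p = 0.180). Without line CMV_252 the log2 ratio was 0.26 (edgeR adjusted p = 0.354). In set 2 the lung lines were at 115, 120, 105 and 189 CPM, with line CMV_252 the highest, and the liver lines at 136, 143, 152 and 136 CPM. The log2 ratio was 0.10 (SE 0.21, adjusted p = 0.976), and 0.33 without line CMV_252 (adjusted p = 0.844).

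Cdkn1a, which encodes the cell cycle inhibitor p21 and is the best known p53 target, was higher in every RPMS library than in every RPM library. Cdkn1a lies at chr17:29090976-29100727 on the plus strand. RPM lines CMV_426, CMV_427, CMV_428 and CMV_429 were at 24.6, 20.4, 11.2 and 34.1 CPM, and RPMS lines CMV_228, CMV_231 and CMV_252 at 66.4, 61.0 and 100.3 CPM. The mean rose from 22.5 ± 9.51 (SD, n = 4) to 75.9 ± 21.3 CPM (SD, n = 3), a log2 ratio of 1.75 (SE 0.39, edgeR adjusted p = 0.0165). It passed with each of the 7 libraries left out in turn, with log2 ratios from 1.49 to 2.02. In set 2 it was at 47.0, 28.7, 52.1 and 140 CPM in lung lines CMV_228, CMV_231, CMV_232 and CMV_252. The lines in both tables, CMV_228, CMV_231 and CMV_252, were there at 0.707, 0.47 and 1.4 of their set 1 CPM. Liver lines CMV_273, CMV_341, CMV_343 and CMV_344 were at 124, 54.8, 154 and 384 CPM. The liver lines were all above the lung lines except line CMV_252, which lay among them. Line CMV_344, the shallowest library and the one with the most genes detected, was the highest. The log2 ratio of 1.42 (SE 0.66) did not pass (edgeR adjusted p = 0.945). It was 2.09 without line CMV_252 (adjusted p = 0.835) and 0.73 without line CMV_344 (adjusted p = 0.998). A part of the Cdkn1a exons overlaps an antisense gene, whose reads cannot be told apart where the counting did not use strand.

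Zmat3, an RNA-binding zinc finger protein that acts in the p53 response, gave the smallest adjusted p of the members. Zmat3 lies at chr3:32334792-32366014 on the minus strand. It was at 32.5, 43.6, 41.3 and 38.2 CPM in the RPM lines and at 126, 125 and 112 CPM in the RPMS lines. The groups were far apart with little spread in each. The mean rose from 38.9 ± 4.81 to 121 ± 7.84 CPM, a log2 ratio of 1.64 (SE 0.17, edgeR adjusted p = 0.00193), and passed with each library left out (1.58 to 1.72). In set 2 lung lines CMV_228, CMV_231 and CMV_232 were at 104, 95.2 and 105 CPM, and line CMV_252 was far lower at 41.5 CPM. The liver lines were at 95.03, 81.7, 114 and 139 CPM. Apart from line CMV_252 lung and liver overlapped, with a log2 ratio of 0.32 (SE 0.32, adjusted p = 0.949) that was 0.096 without that line (0.981). For line CMV_252 Zmat3 in set 2 was 0.371 of its set 1 level, whereas lines CMV_228 and CMV_231 were at 0.820 and 0.765 of theirs.

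Ccng1, a cyclin that recruits a phosphatase to Mdm2, had lower values in every RPMS than in every RPM library. Ccng1 lies at chr11:40748552-40755311 on the minus strand. It was at 101, 66.2, 71.1 and 83.9 CPM in the RPM lines and at 31.9, 25.7 and 60.3 CPM in the RPMS lines. The means of 80.5 ± 15.4 and 39.3 ± 18.5 CPM gave a log2 ratio of −1.03 (SE 0.34) just short of the threshold (edgeR adjusted p = 0.0564). Without line CMV_252 it passed (log2 ratio −1.49, adjusted p = 0.00857), and it passed over all libraries in DESeq2 (adjusted p = 0.0425) and limma-voom (0.0347). In set 2 the lung lines CMV_228, CMV_231, CMV_232 and CMV_252 were at 52.5, 30.0, 36.2 and 71.5 CPM and the liver lines at 44.4, 63.2, 76.7 and 45.4 CPM. The groups overlapped (log2 ratio 0.27, SE 0.32, edgeR adjusted p = 0.952), also without line CMV_252 (0.55, adjusted p = 0.869).

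Sesn2, a stress sensor that restrains mTORC1, varied more within groups than between them. Sesn2 lies at chr4:132492032-132510501 on the minus strand. RPM lines CMV_426, CMV_427, CMV_428 and CMV_429 were at 59.4, 58.7, 28.4 and 88.7 CPM. RPMS lines CMV_228 and CMV_231 were at 19.0 and 18.4 CPM, below every RPM line, and line CMV_252 was the highest of all at 112 CPM. The log2 ratio was −0.24 (SE 0.73, edgeR adjusted p = 0.83), and without line CMV_252 it was −1.66 and passed (adjusted p = 0.0380). In set 2 lung lines CMV_228, CMV_231, CMV_232 and CMV_252 were at 23.8, 43.8, 23.6 and 94.9 CPM and liver lines CMV_273, CMV_341, CMV_343 and CMV_344 at 166, 61.3, 24.2 and 118 CPM. Line CMV_252 was again the highest lung line, and the log2 ratio of 0.99 (SE 0.65) did not pass (adjusted p = 0.945). It was 1.60 without line CMV_252 (adjusted p = 0.835).

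Phlda3, an inhibitor of Akt, was the lowest of the targets in CPM. Phlda3 lies at chr1:135766119-135769136 on the plus strand. It was at 2.70, 2.84 and 5.21 CPM in RPM lines CMV_426, CMV_427 and CMV_428 and at 27.6 CPM in line CMV_429. The RPMS lines were at 4.76, 1.75 and 3.54 CPM, inside the range of the first 3 RPM lines or below it. The log2 ratio was −1.52 (SE 0.96, edgeR adjusted p = 0.276), and −0.10 without line CMV_429 (adjusted p = 0.908). In set 2 the lung lines were at 1.36, 0.706, 4.24 and 2.996 CPM and the liver lines at 0, 4.39, 2.23 and 3.80 CPM, with a log2 ratio of 0.16 (SE 1.12, adjusted p = 0.995).

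**Figure D4:**
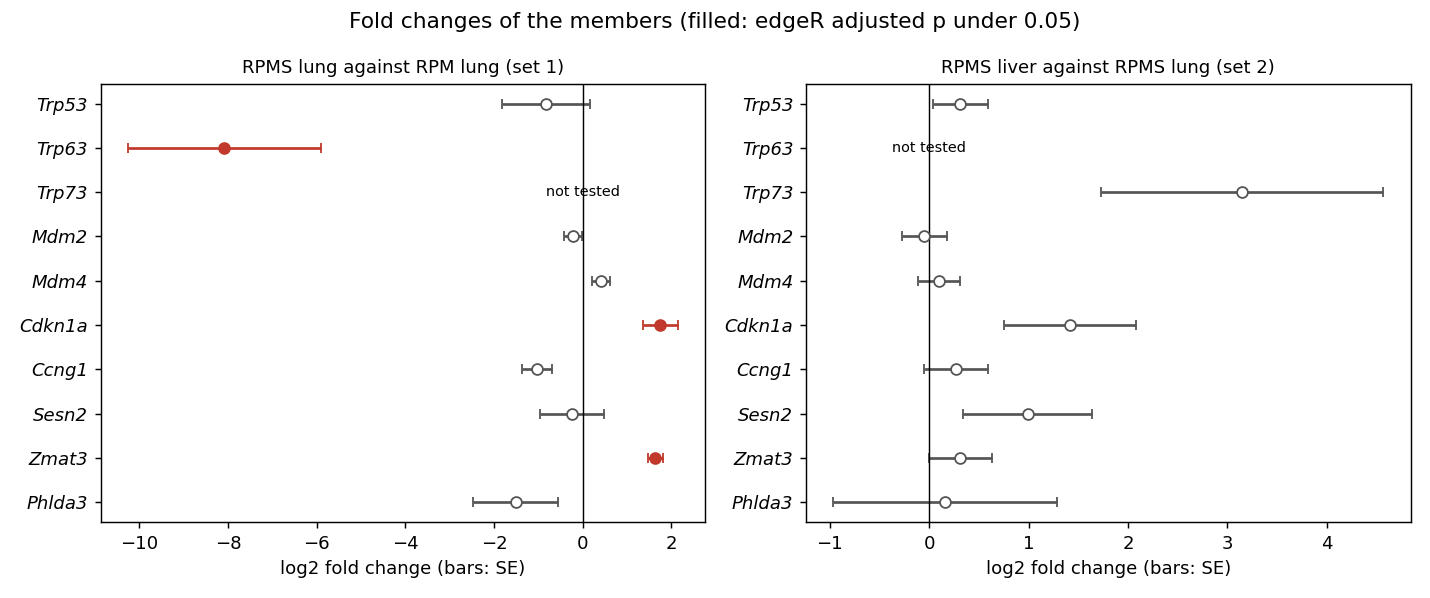
Log2 fold changes of the members with their SE, RPMS against RPM lung (set 1) and RPMS liver against RPMS lung (set 2), filled where the edgeR adjusted p is under 0.05. Cdkn1a (1.75) and Zmat3 (1.64) are higher and Trp63 (−8.08) is lower in RPMS, and no member is filled in set 2.

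Line CMV_252 was above all other RPMS lung lines in both tables for Ccng1, Cdkn1a, Mdm4 and Sesn2, and below all of them in both for Trp73 and Zmat3. Per kilobase of exon the order of the members differed from that in CPM, since Mdm4 and Zmat3 have long transcripts. In RPM of set 1 the highest mean level was that of Ccng1, at 22.9 CPM per kb, followed by Sesn2 at 16.9 and Mdm2 at 12.1 CPM per kb. In RPMS Cdkn1a was the highest, at 21.4 CPM per kb, and Zmat3 was at 10.6 CPM per kb against 3.40 in RPM. In set 2 Cdkn1a was at 18.9 CPM per kb in the lung and 50.4 in the liver lines, and Mdm2 at 20.1 and 19.5 CPM per kb. Trp53 was at 1.05 and 0.590 CPM per kb in RPM and RPMS of set 1, and at 4.49 and 5.58 CPM per kb in lung and liver of set 2. Neighbours in these orders were not tested against each other.

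The wider pathway was read from 60 other genes in 6 lists. All 60 passed the filter in set 1, where 8 were higher and 12 lower in RPMS and 40 did not pass, 20 of 60 called beside 30.6% of all genes. Among the regulators, Ppm1d, a phosphatase that switches p53 signalling off, rose from 26.9 ± 3.03 to 55.6 ± 15.99 CPM (log2 ratio 1.04, SE 0.25, edgeR adjusted p = 0.0213). Trp53inp1, a stress-induced cofactor, fell from 122 ± 68.1 to 22.1 ± 3.38 CPM (−2.46, SE 0.47, adjusted p = 0.0101). Of 5 such inhibitors and feedback genes, 3 did not pass. Of 15 genes upstream of p53, 4 rose and none fell. Among them were the checkpoint kinase Chek1, from 22.0 ± 2.88 to 45.6 ± 9.89 CPM (1.05, adjusted p = 0.0144), the acetyltransferase Kat5, from 31.5 to 52.9 CPM (0.75, adjusted p = 0.0194), and Bard1, the partner of Brca1, from 12.2 to 27.9 CPM (1.20, adjusted p = 0.0252). The calls of Ppm1d and Bard1 were lost without line CMV_429, CMV_228 or CMV_231 (adjusted p 0.0511 to 0.0874), and that of Kat5 without CMV_228 (0.0841) or CMV_231 (0.0775). The median of the upstream list was −0.27 all the same, against −0.01 over all genes.

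The other targets are given by list, and over all genes tested 14.9% were higher and 15.7% lower in RPMS. No test of direction was run for a list. In the arrest list without Cdkn1a, 1 of 6 rose, 2 fell and 3 did not pass, with a median of −1.28, beside 0.13 with Cdkn1a included. The cell cycle repressor E2f7 rose from 11.1 ± 3.97 to 47.9 ± 14.5 CPM (log2 ratio 2.10, edgeR adjusted p = 0.00924). Sfn, which encodes 14-3-3 sigma, fell from 7.98 to 0.409 CPM (−4.27, adjusted p = 0.00586), and the kinase Plk2 from 165 ± 141 to 23.3 ± 4.15 CPM (−2.82, adjusted p = 0.0225). Plk2 did not pass without line CMV_228 (0.0874) or CMV_231 (0.0746), and its log2 ratio was −2.05 without CMV_429. In the apoptosis list without members, 1 of 13 rose, 4 fell and 8 did not pass, with a median of −0.82; Trp53inp1 is also among the 4. The executioner caspase Casp6 fell from 14.2 to 1.33 CPM (−3.41, adjusted p = 0.0024). The death receptor Fas had 559 counts over the RPM lines and none in RPMS, at least 59.8-fold lower against a floor of 3 counts per library (adjusted p = 0.00673). Placing Fas at that bound left the list's median at −0.82, which had to be so because Fas lies below the median either way. In the metabolism and stress list without Sesn2, 1 of 15 rose, 5 fell and 9 did not pass, with a median of −0.55. Susd6 fell from 137 to 35.4 CPM (−1.95, adjusted p = 0.00641). The stress cytokine Gdf15 fell from 18.7 to 0.520 CPM (−5.15, adjusted p = 0.00713), and the autophagy gene Dram1 from 48.6 to 0.940 CPM (−5.69, adjusted p = 0.00738). The log2 ratio of Gdf15 was −6.04 without line CMV_252, and that of Dram1 −4.79 without line CMV_429. In the repair list, with a median of −0.23, 1 of 7 fell and the others did not pass. It was Polk, a translesion polymerase, from 27.0 ± 2.16 to 7.51 ± 1.04 CPM (−1.85, adjusted p = 0.0028). These falls came in libraries whose leukocyte marker sums were also lower, 2.89 to 152 CPM in RPMS against 3583 to 16950 CPM in RPM. The 152 CPM of line CMV_252 were mostly Lyz2 and Cd74, and the part of the leukocyte sums in these falls was not tested.

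**Figure D5:**
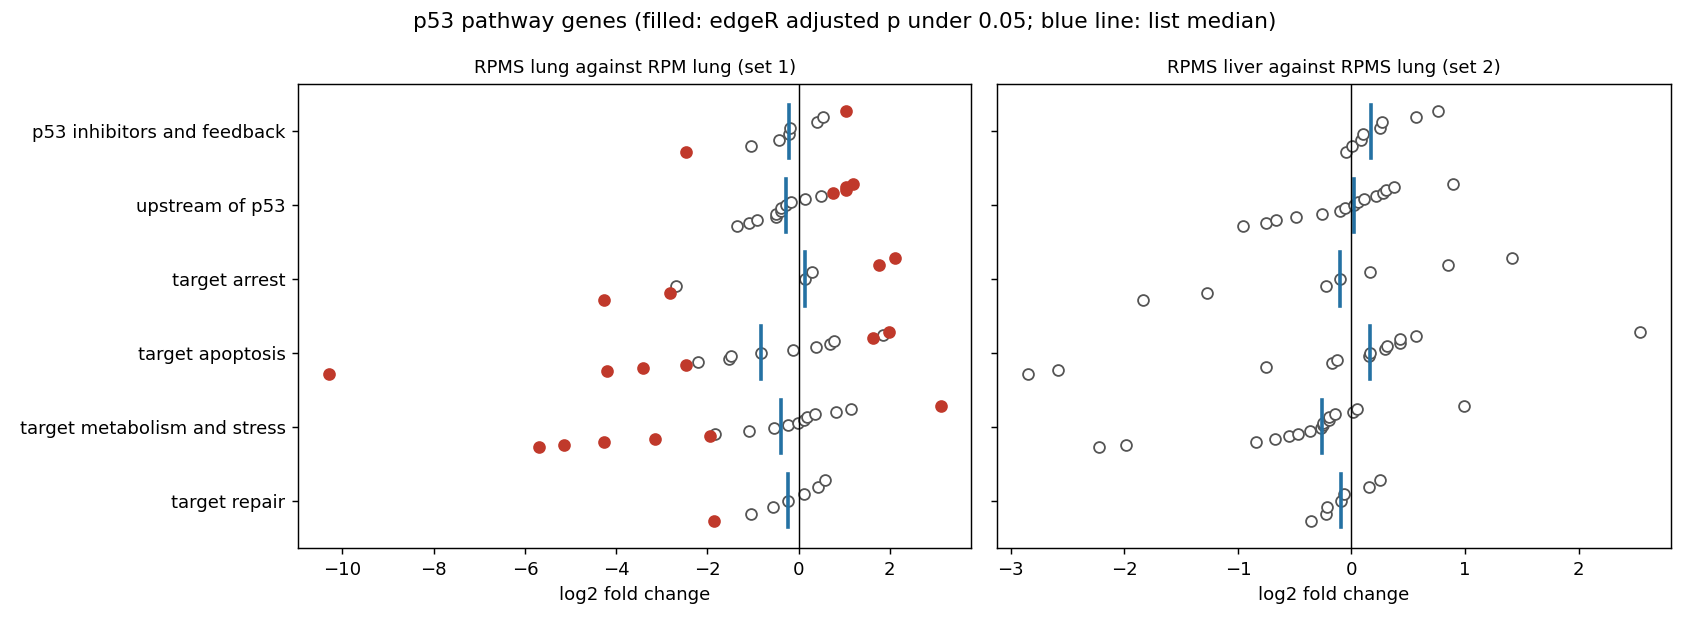
Log2 fold changes of the tested genes of 6 p53 pathway lists, members included, in both comparisons, filled where the edgeR adjusted p is under 0.05, with the list median as a blue line. Filled points lie on both sides in set 1, and none is filled in set 2; the leftmost point of the apoptosis list is the fitted value of Fas, which has no count in RPMS.

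In set 2, 58 of the 60 other pathway genes were tested, and none passed between liver and lung. The smallest unadjusted p in a list belonged to Trim24, a ligase for p53, from 64.9 CPM in lung to 110 CPM in liver (log2 ratio 0.76), to Cdkn2a, at 158 and 93.7 CPM (−0.75), and to Plk2, at 69.0 and 19.3 CPM (−1.84). In the other lists it belonged to Pmaip1, at 16.7 and 2.32 CPM (−2.85), Fdxr, at 32.2 and 22.1 CPM (−0.55), and Polh, at 58.8 and 46.0 CPM (−0.35). The edgeR adjusted p of each was 0.945. Without line CMV_252 the log2 ratio was 0.06 for Pmaip1, −1.20 for Plk2, −0.26 for Fdxr and −0.51 for Cdkn2a.

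The 5 genes whose levels were most like those of Trp53 were chosen by the lower of their Pearson correlations of log2 CPM with Trp53 over the 7 libraries of set 1 and the 8 of set 2, among 13810 genes. They were Usp24 (r = 0.891 in set 1 and 0.916 in set 2), Lrif1 (0.915 and 0.849), Fpgt (0.842 and 0.946), Wars2 (0.840 and 0.870) and Wdr3 (0.938 and 0.838). These values are a description over libraries that share 3 lines between the tables, and high values follow from the choice itself. Those of set 1 include the Trp53 counts of 13 and 18 in lines CMV_228 and CMV_231. Usp24 lies on chromosome 4, and 4 of the 5 lie on chromosome 3, which holds 5.19% of annotated genes. That share is not over the 13810 genes searched, and position was not tested.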

How the data were processed

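Total RNA of cultured lines was sequenced in 15 stranded libraries, per the labels' protocols, with lines CMV_228, CMV_231 and CMV_252 in both sets. HISAT2, StringTie and the build GRCm38 are named in the submitters' processing notes, and their versions, roles, annotation and strand setting are not given in the sources used here. The authors deposited 2 tables of raw read counts per gene, set 1 with 7 libraries and set 2 with 8. All columns were matched to samples by name, and for RPM line CMV_429 the column name differs from the title by an extra letter. In set 2, 1832 records without a gene name (0.0569% to 0.0799% of counts) were left out.

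Each table was analysed alone in R 4.3.3 with edgeR 4.0.16: edgeR's default expression filter, TMM scaling, two-sided quasi-likelihood tests and p-values adjusted by Benjamini-Hochberg over all genes tested, at 0.05. CPM use TMM-scaled library sizes, and SE were derived from the F statistic. No source says that the lines came from separate animals, so p-values measure only the spread between these samples, which may be technical. Alternatives were DESeq2 1.42.0, limma-voom (limma 3.58.1), upper-quartile or relative log expression scaling, testing without a filter, requiring 10 counts in every library of a group, and leaving out each library. The edgeR and limma-voom tests were also run on simulated counts, and the outcome is not given here. Positions and exon lengths came from a GENCODE annotation of GRCm38, and promoters from RefSeq.

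The members and lists were chosen with earlier results of these data known. The text names the 10 members, Stat3 and Rb1, up to 3 called genes of each other pathway list with the smallest p in set 1 and 1 in set 2, the 5 genes most like Trp53 (log2 CPM with a prior count of 2), and the leukocyte markers Ptprc and Csf1r. In set 1, Csf1r ranged from 368 to 1624 CPM over the RPM lines and reached 0.121 CPM in the RPMS lines. Wrap53 (the neighbour of Trp53), Trp73os (antisense to Trp73), Krt5 and Krt14 lie outside this rule and were chosen after values were seen. Ptprc and Csf1r belong to a list of 15 leukocyte markers. Hepatocyte, endothelial and other marker lists were summed per library.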

Additional observations from a re-analysis of the deposited data

Results flagged for a closer look

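In 30 groups of 4 libraries examined for the members, 6 had a library whose gap to the nearest other exceeded Dixon's 95% critical value. Chance does this in about 1 of 20 groups, but 2 of the 6 are groups whose other 3 libraries have no count, where any count is singled out by construction, so that the comparison with chance does not hold for them. Of the 6, 4 concern lung line CMV_252 in set 2. There Mdm4 was at 189.2 CPM, against 105.3 to 119.5 CPM in the other lung lines, and Zmat3 was at 41.49 CPM, against 95.2 to 104.9 CPM. Trp73 was at 0.1537 CPM in that library, against 2.936 to 3.32 CPM. Trp63 was at 0.2305 CPM there and without a count in the other lung lines, a level at the floor of 3 counts. In RPM of set 1, Phlda3 was at 27.55 CPM in line CMV_429, against 2.704 to 5.212 CPM in the other lines. Trp73 was at 0.1959 CPM in RPM line CMV_426 and without a count in the other RPM lines.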

How the results depend on the processing

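No paired analysis was possible because the groups compared within a table share no line number. In set 1 the count of genes called ran from 2896 (without line CMV_228) to 7076 (without line CMV_252) when each library was left out, beside 5403 with all, and the count of members called from 2 to 6, beside 3. DESeq2 called 5 members in set 1, the same 3 with Ccng1 and Trp73. In set 2, edgeR called 0 genes, DESeq2 78 and edgeR without a filter 2, and 0 with any library left out. Cdkn1a and Zmat3 passed in set 1 under every alternative run. Ccng1 (log2 fold change −1.49), Trp53 (−3.12), Sesn2 (−1.66) and Rb1 (1.39), and Trp73 after passing the filter, were called in set 1 once line CMV_252 was left out. Trp63 lost its call in 3 of the 4 omissions it could be tested in and in limma-voom (−6.71), and it was not tested with the minimum of 10 counts. The calls of Ppm1d and Bard1 were lost without line CMV_429, CMV_228 or CMV_231 (adjusted p 0.0511 to 0.0874 and 0.0567 to 0.0862), and those of Kat5 and Plk2 without line CMV_228 or CMV_231 (0.0775 to 0.0841 and 0.0746 to 0.0874).

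Values not past the threshold changed sign when a library was left out: Sesn2 in set 1 (−1.66 to 0.15), and in set 2 Phlda3 (−0.22 to 0.62), Mdm2 (−0.22 to 0.053), Rb1 (−0.38 to 0.31, the lowest without line CMV_343) and Pmaip1 (−3.43 to 0.058, the highest without line CMV_252). Phlda3 in set 2 was −0.97 in limma-voom. The cause was not tested. Trp63 in RPMS of set 1 and Trp73 in RPM had at most 3 and 5 counts in a library, where counting error limits any fold.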
